A study of Mus musculus with 26 samples.

Results

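The clustered Hox genes, 39 genes of the *Hoxa*, *Hoxb*, *Hoxc* and *Hoxd* clusters, were followed through the testis and through 2 regions of the epididymis, the caput and, before it, the initial segment (IS). They were taken by symbol (Hox, a cluster letter from a to d and a number) from the 23337 genes of the count tables. The *Hoxa* cluster gave 11 members, *Hoxb* 10, *Hoxc* 9 and *Hoxd* 9. mRNA was sequenced from the IS and the caput of 5 WT and 5 ArKI males and from the testes of 3 WT and 3 ArKI males. All mice were 3 months old and of a C57Bl/6N; 129 hybrid strain. ArKI mice carry a knock-in allele in every cell from conception on, and WT mice do not. Counts per gene do not check these genotype labels. IS and caput were sequenced in one run and testes in another. Where IS and caput samples bear the same number, nothing in the labels says that they came from the same mouse.

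Hox genes encode homeodomain transcription factors that stand side by side in clusters. During development the genes at one end of a cluster, with low numbers, are switched on early and towards the head, those at the other end late and towards the tail, and many adult tissues keep part of the pattern. Genes with the same number in different clusters are paralogs. Retinoic acid activates low-number genes, Polycomb proteins keep silent genes silent, and Pbx and Meis proteins bind DNA together with Hox proteins. In the male tract, *Hoxa9* is expressed along the epididymis, *Hoxa10* and *Hoxa11* mainly in its lower part and the vas deferens, and *Hoxa13* and *Hoxd13* the seminal vesicle and prostate. The comparisons asked which Hox genes separate IS from caput, and whether they differ between ArKI and WT mice.

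The libraries held between 4125768 and 11913469 counts in the epididymis and between 14077013 and 21376604 in the testis, and ArKI caput replicate 2 was the smallest. Hox genes took 0.161% to 0.213% of all counts in the epididymal samples and 0.0125% to 0.0148% in the testis samples. Levels are counts per 1000000 counts of the library after scaling by TMM factors (CPM). Levels of different genes were compared per kilobase of exon (RPKM). A gene was called detected in a group when every sample held more than 3 counts, and a count of 0 allows a level of up to 0.234 to 0.631 CPM in the epididymal samples, for counting error only. Of the summed marker lists for the 2 segments, that for IS separated them and that for caput did not. The summed level of 6 IS epithelial markers was 16864 to 23162 CPM in IS samples and 344 to 1938 CPM in caput samples, and none of the 6 was at 0 throughout a group. The 4 caput epithelial markers summed to 53546 to 78855 CPM in IS and to 53568 to 87922 CPM in caput samples. Singly, their log2 changes from WT IS to WT caput ran from -2.45 to 7.52 in the test used below. The sum thus held markers that changed in opposite directions. WT caput replicates 3 and 4 had the highest IS marker sums among caput samples, 1872 and 1938 CPM, so the caput results were also computed without them.

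Of the 39 Hox genes, 28 were detected in each of the 4 epididymal groups, 18 in WT testis and 21 in ArKI testis. The 28 were not the same genes in each group. *Hoxc9* and *Hoxd1* were not detected in either IS group, nor *Hoxb1* and *Hoxd10* in either caput group. The genes detected in no epididymal group were those with the highest numbers of their clusters. *Hoxa13*, *Hoxc10* to *Hoxc13*, *Hoxb13* and *Hoxd11* to *Hoxd13* had at most 2 counts in each epididymal sample. *Hoxa11* was the highest-numbered *Hoxa* gene detected in all 4 groups, and *Hoxd10*, detected in IS, the highest-numbered *Hoxd* gene.

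Per length, 3 neighbours of the *Hoxb* cluster led in WT IS. *Hoxb6* had 189 ± 5.42 RPKM (SD, n = 5), *Hoxb7* 184 ± 11.7 RPKM and *Hoxb8* 117 ± 6.04 RPKM, and the ranges of the first pair overlapped. In WT caput, *Hoxb6* had 146 ± 7.29 RPKM, *Hoxd4* 126 ± 5.66 RPKM and *Hoxb8* 89.7 ± 3.93 RPKM (n = 5). *Hoxd4* came before *Hoxb8* there, while in WT IS it had 86.6 ± 4.79 RPKM and came after it. WT testis had another order (n = 3). *Hoxa4*, a gene known from meiotic and later male germ cells, had 45.2 ± 1.86 RPKM, *Hoxd8* 14.3 ± 0.454 RPKM and *Hoxb3* 4.04 ± 0.329 RPKM.

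**Figure D1:**
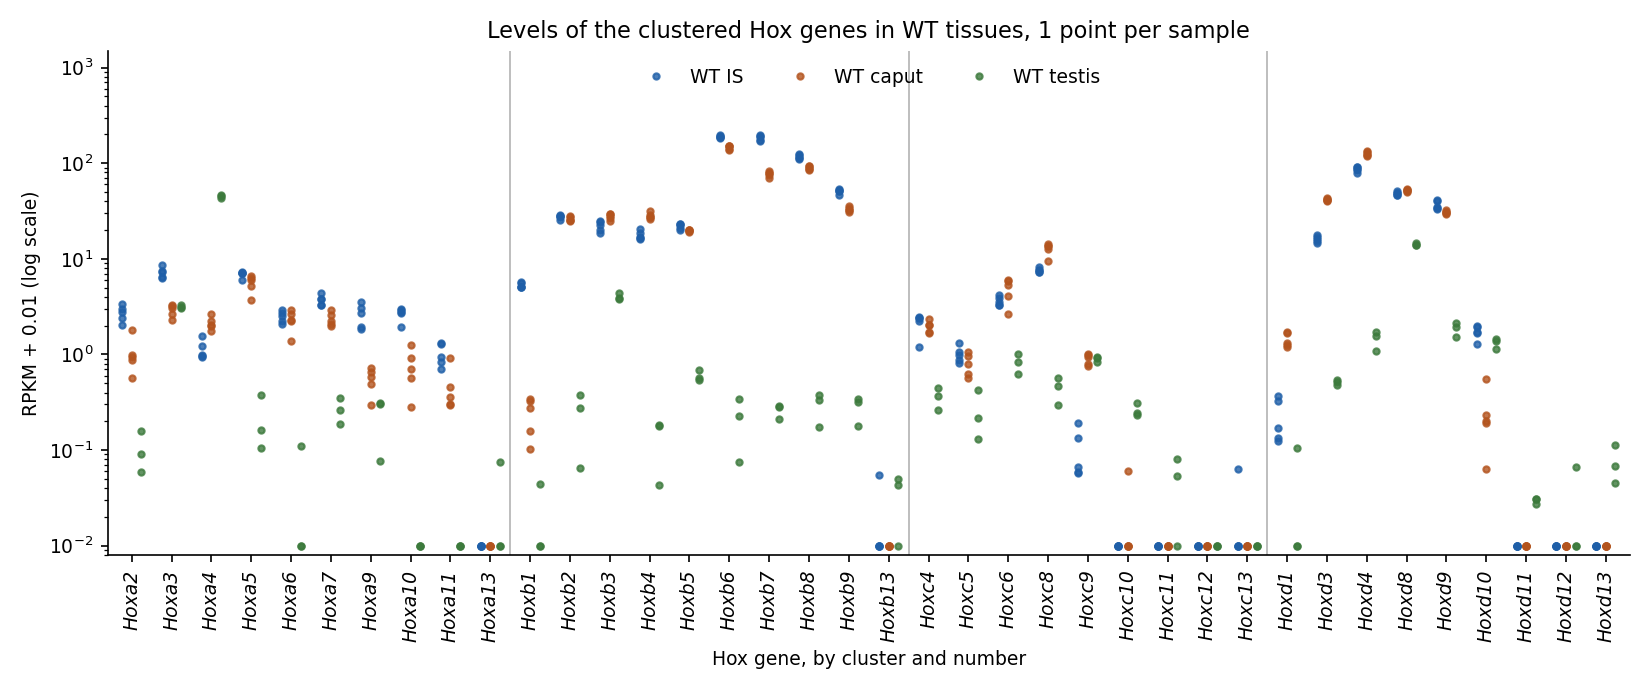
Levels of Hox genes in WT IS, WT caput and WT testis, as RPKM + 0.01 on a log axis, with 1 point per sample and genes ordered by cluster and number. The *Hoxb* genes from *Hoxb6* to *Hoxb8* and *Hoxd4* stood highest in the epididymis, genes numbered 11 to 13 other than *Hoxa11* lay near the bottom of the axis in the epididymis, and *Hoxa4* led in the testis.

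The share of each cluster in the summed RPKM of all 39 genes differed between segments and between genotypes. In WT IS, *Hoxb* genes took 71.5% to 74.0% and *Hoxd* genes 20.7% to 23.4%. In WT caput the *Hoxb* share was 59.7% to 61.3% and the *Hoxd* share 33.3% to 34.6%. The groups did not overlap. In ArKI mice the *Hoxb* share was 63.2% to 67.8% in IS and 51.2% to 56.0% in caput, in both segments below every WT sample, and the *Hoxd* share was 25.6% to 30.2% in IS and 38.3% to 43.3% in caput, in both above every WT sample. In the testis *Hoxa* genes took 62.0% to 64.3% over the 6 samples, and *Hoxa4* was their highest member. These shares are a description and were not tested.

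**Figure D2:**
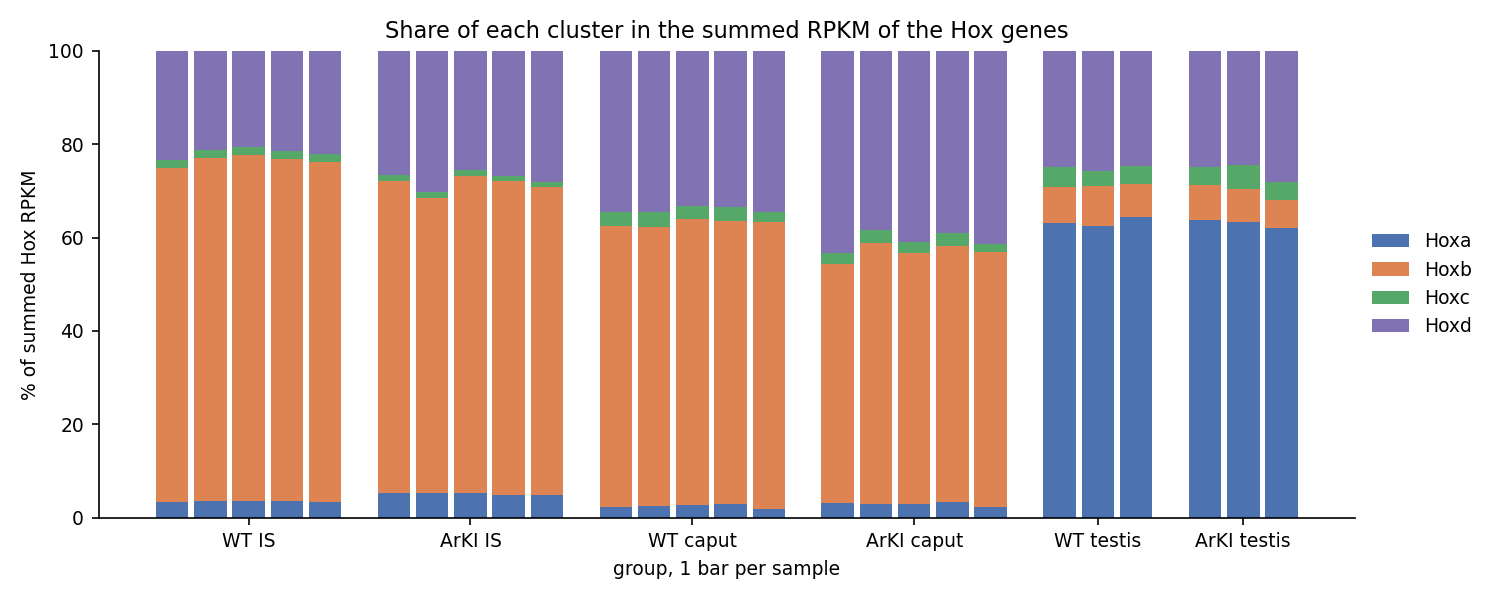
Percent of the summed Hox RPKM that each cluster took, with 1 stacked bar per sample in replicate order. The mean *Hoxb* share was 73.0% in WT IS, 66.2% in ArKI IS, 60.6% in WT caput and 54.0% in ArKI caput, and *Hoxa* took most of the testis bars.

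Promoter sequences are shown for 5 genes of the comparisons below, chosen after their values were seen. The windows of *Hoxa3* and *Hoxd3* are not shown, since 250 and 66 of their bases lie in annotated exons. RefSeq gives promoters on GRCm38.p6 for 22 of the 39 genes. Each sequence is the 250 bases before a start, 5′ to 3′ on the strand of the gene. Capitals mark either of 2 motifs, searched on both strands: the retinoid receptor half-site AGGTCA and the Pbx-Hox motif TGATNNAT. The *Hoxa9* (chr6:52227371-52227620, minus strand) and *Hoxa10* windows (chr6:52234940-52235189 and chr6:52240855-52241104, minus strand) belong to the members with the widest rise from WT to ArKI IS.
Hoxa9: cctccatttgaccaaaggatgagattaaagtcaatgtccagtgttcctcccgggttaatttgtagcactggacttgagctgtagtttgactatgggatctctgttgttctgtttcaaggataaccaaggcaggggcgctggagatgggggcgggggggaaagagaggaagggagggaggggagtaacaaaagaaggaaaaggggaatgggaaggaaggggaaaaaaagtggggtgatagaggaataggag
Hoxa10, start nearer to Hoxa9: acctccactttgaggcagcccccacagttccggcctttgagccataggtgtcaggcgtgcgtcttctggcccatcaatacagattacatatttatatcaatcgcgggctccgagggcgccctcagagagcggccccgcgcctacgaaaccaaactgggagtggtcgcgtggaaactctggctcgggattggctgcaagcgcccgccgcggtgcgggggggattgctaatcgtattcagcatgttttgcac
Hoxa10, farther start: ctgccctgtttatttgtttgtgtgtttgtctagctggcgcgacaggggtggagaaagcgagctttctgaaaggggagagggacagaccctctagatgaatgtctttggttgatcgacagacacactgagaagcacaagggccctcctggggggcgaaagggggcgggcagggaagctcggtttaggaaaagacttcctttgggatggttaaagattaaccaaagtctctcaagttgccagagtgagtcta
The *Hoxb1* window (chr11:96365508-96365757, plus strand), the *Hoxd4* window (chr2:74721728-74721977, plus strand) and the *Hoxd10* window (chr2:74691641-74691890, plus strand) belong to genes that separated IS from caput.
Hoxb1: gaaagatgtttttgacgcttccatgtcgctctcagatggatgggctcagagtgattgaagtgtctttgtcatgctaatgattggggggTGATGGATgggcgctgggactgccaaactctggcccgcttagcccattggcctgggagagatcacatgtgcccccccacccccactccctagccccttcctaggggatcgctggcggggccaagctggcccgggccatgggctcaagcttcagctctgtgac
Hoxd4: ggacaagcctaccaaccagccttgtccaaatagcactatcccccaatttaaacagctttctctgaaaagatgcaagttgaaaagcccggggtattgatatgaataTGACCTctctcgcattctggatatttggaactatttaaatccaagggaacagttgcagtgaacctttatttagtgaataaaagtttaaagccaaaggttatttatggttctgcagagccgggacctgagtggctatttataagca
Hoxd10: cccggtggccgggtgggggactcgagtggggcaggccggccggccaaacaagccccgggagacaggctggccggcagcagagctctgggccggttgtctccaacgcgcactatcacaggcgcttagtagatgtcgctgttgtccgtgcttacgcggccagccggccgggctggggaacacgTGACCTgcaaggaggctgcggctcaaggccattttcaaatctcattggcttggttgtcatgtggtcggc

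The *Hoxa9* window and both *Hoxa10* windows held neither motif. The retinoid half-site was found in the windows of 6 Hox genes, *Hoxb4*, *Hoxc4*, *Hoxd3*, *Hoxd4*, *Hoxd8* and *Hoxd10*, or 25.0% of the 24 Hox windows against 14.0% of 32817 promoter windows of the same length. The Pbx-Hox motif was found for 4, *Hoxa2*, *Hoxb1*, *Hoxb8* and *Hoxd11*, or 16.7% against 7.69%. The Hox windows had a median of 12.5 CpG dinucleotides, and all windows one of 6. A match describes these letters only and is not a binding site.

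WT IS and WT caput differed in most genes of any kind, Hox genes included. Of 30 members tested, 9 were higher in caput, where 34.4% of all tested genes were called in that direction, and 15 were lower, where 35.0% of all tested genes were (edgeR's quasi-likelihood test, adjusted p below 0.05). The median over the 30 was -0.20 on the log2 scale, and over all genes -0.00063. Among the lower genes were 7 of 10 tested *Hoxa* genes and 6 of 9 *Hoxb* genes. Of these, *Hoxa5* (log2 -0.31, adjusted p = 0.0424) overlapped between segments. Its call was lost in 8 of 18 alternatives, with an adjusted p of up to 0.173. *Hoxc* had 2 higher and none lower of 5 tested, and *Hoxd* 4 higher and 2 lower of 6. In bulk tissue, fewer cells of a type and less RNA per cell cannot be told apart.

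Summed markers of other cell types also separated WT IS from WT caput. Ciliated efferent duct markers summed to 24.7 to 38.3 CPM in IS and 1.72 to 2.98 CPM in caput, and endothelial markers to 82.4 to 98.8 CPM and 33.2 to 35.8 CPM. Immune markers summed to 64.0 to 81.3 CPM and 32 to 42.4 CPM, and fibroblast markers to 1017 to 1132 CPM and 664 to 737 CPM. Of the 6 fibroblast markers singly, 1 was called lower in caput and 0 higher, where 35.0% and 34.4% of all tested genes were. Their median log2 change was -0.0076. Smooth muscle markers were at 514 to 593 CPM in IS and 717 to 898 CPM in caput, and germ cell and sperm markers at 6.13 to 41.7 CPM and 107 to 179 CPM. Of the Sertoli list, 1 of 2 tested genes was higher in caput and 1 lower, and its sum stood at 115 to 135 CPM and 49.9 to 57.8 CPM. The Leydig list stood at 2.26 to 4.21 CPM and 13.9 to 18.0 CPM, and the Schwann cell markers at 5.15 to 6.58 CPM and 7.75 to 8.90 CPM. Their part in the Hox differences was not tested.

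The *Hoxb* cluster held the widest drop. *Hoxb1*, which patterns the hindbrain in the embryo, had 11.6, 10.6, 11.8, 10.5 and 10.5 CPM in the WT IS samples and 0.191, 0.307, 0.548, 0.688 and 0.662 CPM in the WT caput samples. Every IS sample was above every caput sample. *Hoxb1* was 22.8-fold lower in caput (log2 change -4.51 ± 0.22, with its SE, adjusted p = 1.01e-15), although the caput counts were only 2 to 6 per sample. *Hoxb7*, one of the most abundant members in IS, had 226, 255, 246, 242 and 218 CPM in WT IS and 96.9, 91.0, 103, 107 and 103 CPM in WT caput. The samples again did not overlap, with a fitted change of -1.24 ± 0.06 (adjusted p = 5.7e-16). *Hoxb9* had 121 to 139 CPM in IS and 80.2 to 92.4 CPM in caput, and it was lower in caput by 1.53-fold (log2 -0.62 ± 0.05, adjusted p = 1.33e-11).

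A pair of neighbours with lower numbers went the other way. *Hoxb4*, a gene known from the hindbrain and blood stem cells, had 52.2, 48.0, 40.9, 43.4 and 42.4 CPM in WT IS and 70.9, 74.4, 66.8, 81.1 and 70.6 CPM in WT caput. It was higher in caput by log2 0.69 ± 0.08 (adjusted p = 1.41e-08). *Hoxb3* was higher by log2 0.33. *Hoxb2*, between *Hoxb1* and *Hoxb3*, was not called, with 44.8 CPM in IS and 43.0 CPM in caput. Within 1 cluster, *Hoxb1* and the genes from *Hoxb5* to *Hoxb9* were thus lower in caput, and *Hoxb3* and *Hoxb4* higher. *Hoxb5* had the smallest of these changes, -0.15 (adjusted p = 0.0292), and its call was lost in 8 of 18 alternatives, with an adjusted p of up to 0.0927. Among the 8 were the fits without WT IS replicate 2, 3 or 5 and without WT caput replicate 2, 4 or 5.

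In the *Hoxa* cluster, *Hoxa9* had 6.27, 11.3, 9.94, 5.86 and 8.64 CPM in WT IS and 2.30, 0.921, 1.86, 2.07 and 1.54 CPM in WT caput. Each IS sample was above each caput sample, and the fitted change was -2.27 ± 0.24 (adjusted p = 4.36e-09). *Hoxa3*, a gene of pharyngeal organs, had 16.3 to 22.1 CPM in IS and 5.85 to 8.59 CPM in caput and changed by -1.31 ± 0.11 (adjusted p = 3.4e-11). Of its exon bases 18% are shared with antisense genes, and whether counting used the strand is not given in the sources used here. *Hoxa10* had 6.00 to 9.34 CPM in WT IS and 0.861, 1.74, 3.94, 2.87 and 2.21 CPM in the caput samples. The highest *Hoxa10* levels in caput were in replicates 3 and 4, the libraries with the highest IS marker sums. With all samples *Hoxa10* was 3.63-fold lower in caput, and without these 2 libraries the log2 change was -2.39 in place of -1.86. *Hoxa4* alone in the cluster was higher in caput, at 2.76 to 4.19 CPM against 1.47 to 2.46 CPM.

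The *Hoxd* cluster changed step by step along its length. From the lowest number to the highest, the log2 change from WT IS to WT caput was 2.74 for *Hoxd1*, 1.36 for *Hoxd3*, 0.55 for *Hoxd4*, 0.12 for *Hoxd8*, -0.25 for *Hoxd9* and -2.83 for *Hoxd10*, and all 6 passed the test. In ArKI mice the same genes gave 2.12, 1.14, 0.48, -0.09, -0.34 and -2.99, and *Hoxd8* was the one not called. This order was noticed after the values were seen and was not tested. The *Hoxc* changes ran the other way from *Hoxc5* on. In WT mice they were -0.12 for *Hoxc4*, -0.34 for *Hoxc5*, 0.40 for *Hoxc6*, 0.75 for *Hoxc8* and 3.15 for *Hoxc9*, and the last pair was called. In ArKI mice they were 0.23, -0.29, 0.42 and 1.18 from *Hoxc4* to *Hoxc8*, and *Hoxc9* was at least 6.04-fold higher. The step from *Hoxc4* to *Hoxc5* went against this order, which was not tested either.

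Where the changes were widest the counts were small. *Hoxd10* had 3.08, 3.54, 2.34, 3.60 and 3.04 CPM in WT IS and 0.0956, 0.409, 0.986, 0.344 and 0.331 CPM in WT caput (SE of the log2 change 0.34, adjusted p = 3.46e-08). *Hoxd1* had 0.215 to 0.666 CPM in WT IS and 2.19 to 3.20 CPM in WT caput (SE 0.33, adjusted p = 4.17e-08). *Hoxc9* had 0.114 to 0.429 CPM in WT IS and 1.75 to 2.39 CPM in WT caput (SE 0.40, adjusted p = 1.3e-07). None of the 3 overlapped between segments. *Hoxd3* was abundant, with 52.9, 47.4, 43.8, 46.0 and 50.4 CPM in WT IS and 123, 120.1, 122, 127 and 124 CPM in WT caput. Its SE was 0.07 (adjusted p = 2.34e-15), and all caput samples lay above all IS samples.

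**Figure D3:**
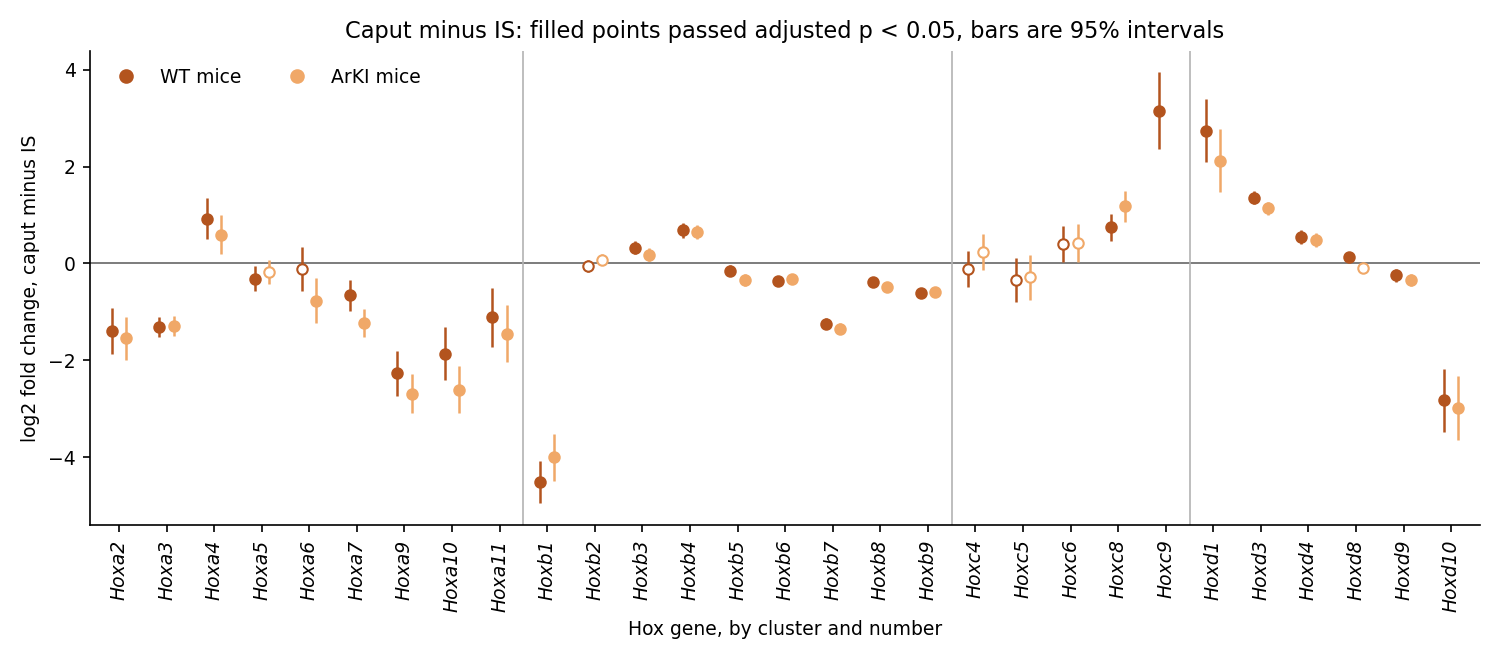
Log2 fold change from IS to caput of tested Hox genes in WT and in ArKI mice, with approximate 95% intervals. Points are filled where the adjusted p was below 0.05, and genes are ordered by cluster and number. The *Hoxd* points fell from *Hoxd1* to *Hoxd10* in both genotypes, and of the *Hoxc* points *Hoxc8* and *Hoxc9* passed the test. For *Hoxc9* the ArKI value is a bound and is not drawn.

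The segments were also compared in the ArKI mice, which share no sample with the WT comparison. Caput was higher for 8 members, where 33.0% of all tested genes were higher, and lower for 15, where 33.2% were. The 10 members with the smallest adjusted p were *Hoxb7* (log2 -1.35), *Hoxb1* (-4.0), *Hoxd3* (1.14), *Hoxa9* (-2.69), *Hoxa3* (-1.30), *Hoxb9* (-0.60), *Hoxa10* (-2.61), *Hoxd10* (-2.99), *Hoxb8* (-0.49) and *Hoxc9*. Their adjusted p lay between 1.76e-16 and 2.33e-08 by edgeR's quasi-likelihood test. *Hoxc9* had at most 3 counts in every ArKI IS sample, and against 3 counts it was at least 6.04-fold higher in ArKI caput. *Hoxa6* was called in ArKI mice only, with a log2 change of -0.77 there and -0.12 in WT mice, but the difference between the genotypes did not pass the test of the interaction. Markers of other cell types separated the ArKI segments too. Smooth muscle markers summed to 224 to 399.9 CPM in ArKI IS and 593 to 1299.5 CPM in ArKI caput, ciliated efferent duct markers to 38.1 to 139 CPM and 1.33 to 3.37 CPM, and germ cell and sperm markers to 0.675 to 2.56 CPM and 5.23 to 25.5 CPM. The Sertoli list stood at 136 to 177 CPM and 83.0 to 99.0 CPM, and the Leydig list at 2.84 to 5.12 CPM and 18.5 to 24.8 CPM. Their part in the Hox differences was not tested.

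That test, of the change between segments in ArKI mice minus that in WT mice, called 1 of the 30 members, where 15.1% of all tested genes were called. *Hoxd8*, one of the most even Hox genes of the tract, had 139.6, 134, 126, 127 and 132 CPM in WT IS, 145, 139.8, 138, 144 and 149 CPM in WT caput, 161, 159.8, 153, 167 and 152 CPM in ArKI IS and 158, 142, 155, 140.0 and 149.9 CPM in ArKI caput. ArKI IS stood above both WT groups, with its lowest sample above their highest, and it overlapped ArKI caput. The interaction was -0.21 ± 0.06 on the log2 scale (adjusted p = 0.0188). For *Hoxa7* the interaction was -0.56 ± 0.22 (adjusted p = 0.0853), and its approximate 95% interval, not adjusted for the number of genes, ran from -1.0 to -0.13. For *Hoxa10* it was -0.75 ± 0.39 (adjusted p = 0.22), with an interval from -1.51 to 0.01.

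**Figure D4:**
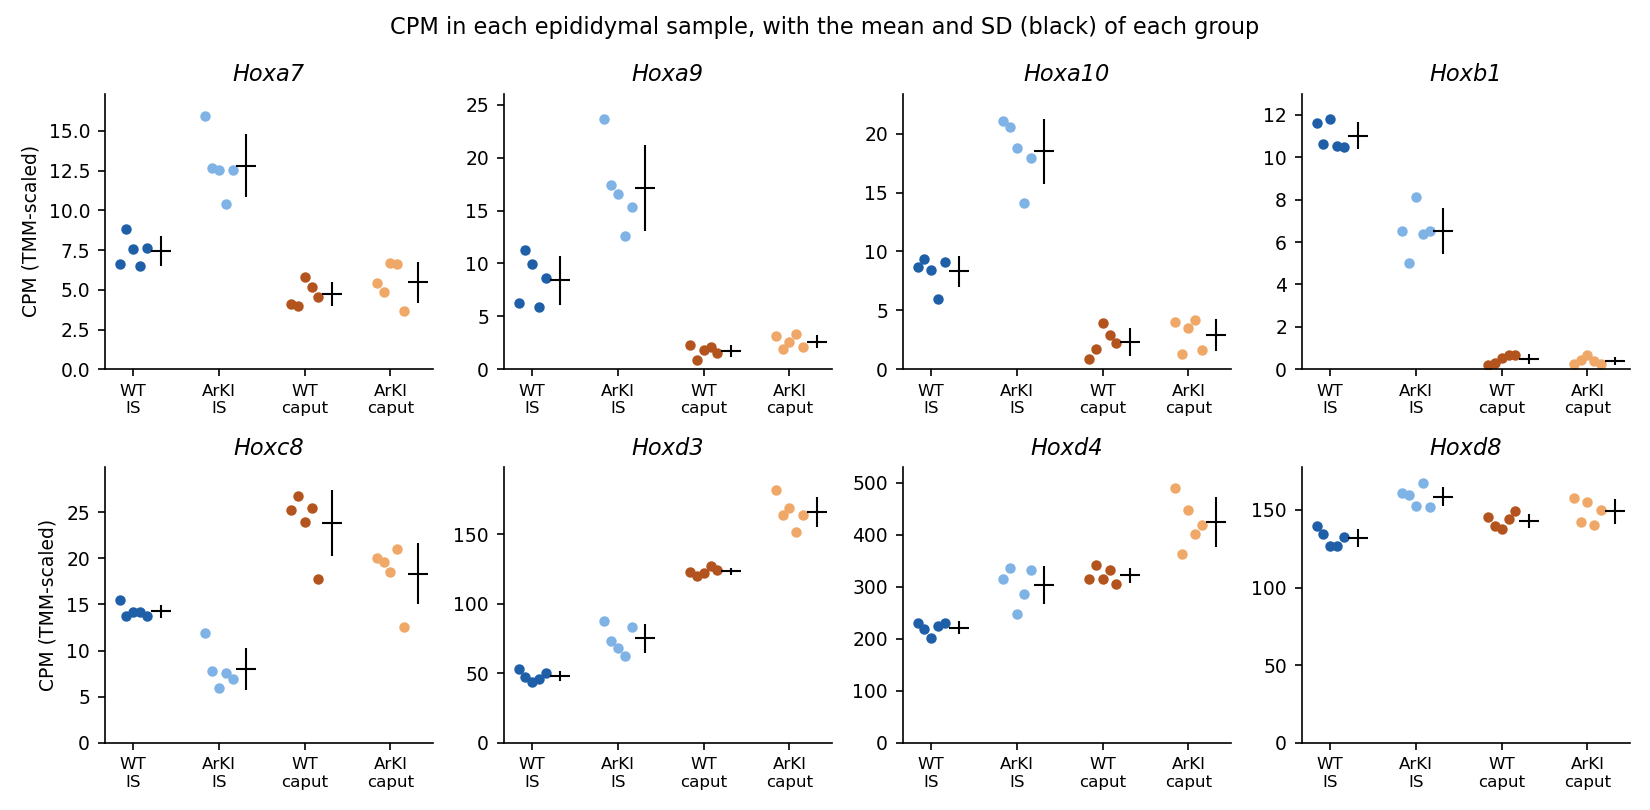
CPM of 8 Hox genes in each of the 20 epididymal samples, with the group mean and SD in black at the right of each group and the axis from 0. *Hoxa7*, *Hoxa9* and *Hoxa10* were highest in ArKI IS, *Hoxb1* was near 0 in caput, and *Hoxd3* and *Hoxd4* were higher in ArKI than in WT samples of the same segment.

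In the IS of ArKI mice, 5 genes of the *Hoxa* cluster, *Hoxa3*, *Hoxa5*, *Hoxa7*, *Hoxa9* and *Hoxa10*, and 3 of the *Hoxd* cluster were higher than in WT IS. The call of *Hoxa3* had overlapping groups and was lost in 5 of 17 alternatives. Of 28 members tested between ArKI IS and WT IS, 9 were higher, where 15.0% of all tested genes were, and 3 were lower, where 14.6% were. All 5 called *Hoxa* genes and all 3 called *Hoxd* genes were higher. The lower genes were *Hoxb1*, *Hoxb6* and *Hoxc8*. The median over the members was 0.14 on the log2 scale, against -4.4e-05 over all genes. These values share the WT IS samples with the segment comparison.

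*Hoxa10*, which specifies the lower epididymis and vas deferens, had 8.66, 9.34, 8.42, 6.00 and 9.13 CPM in WT IS and 21.1, 20.6, 18.8, 14.1 and 18.0 CPM in ArKI IS. All ArKI samples lay above all WT samples, and the rise was 2.22-fold (log2 1.15 ± 0.13, adjusted p = 1.03e-06). *Hoxa9* had 6.27 to 11.3 CPM in WT IS and 12.6 to 23.7 CPM in ArKI IS, without overlap (log2 1.02 ± 0.19, adjusted p = 0.00123). *Hoxa7* had 6.61, 8.80, 7.60, 6.53 and 7.66 CPM in WT IS and 15.9, 12.7, 12.6, 10.4 and 12.5 CPM in ArKI IS (log2 0.78 ± 0.13, adjusted p = 0.000108). These neighbours, chr6:52214491-52240854 on GRCm38 with the genes on the minus strand, were the members with the widest rise. *Hoxa5* rose by 0.41 ± 0.09 (adjusted p = 0.00178), and *Hoxa11*, next to *Hoxa10*, was not called. A stretch of 24.8% of the *Hoxa11* exon bases is shared with an antisense gene.

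At the thresholds of the study, adjusted p below 0.01 and more than 2-fold, 2 members were called, *Hoxa10* and *Hoxa9*, where 4.04% of all genes tested were. *Hoxa9* stood near the fold limit. Without WT IS replicate 1 its log2 change was 0.93 and without WT IS replicate 4 it was 0.93, which left *Hoxa10* as the sole call. Without ArKI IS replicate 1 it was 0.88, and *Hoxc8* was called in its place.

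*Hoxd3*, whose protein acts in the neck vertebrae, had 52.9, 47.4, 43.8, 46.0 and 50.4 CPM in WT IS and 87.5, 73.5, 68.5, 62.4 and 83.1 CPM in ArKI IS (log2 0.64 ± 0.08, adjusted p = 1.76e-05). *Hoxd4* had 202 to 231 CPM in WT IS and 247 to 337 CPM in ArKI IS (log2 0.45 ± 0.07, adjusted p = 0.000248). Neither overlapped between genotypes. *Hoxd8* rose by 0.26 ± 0.04 (adjusted p = 0.000146), and *Hoxd9* and *Hoxd10* were not called.

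*Hoxb1* fell from 10.5 to 11.8 CPM in WT IS to 6.52, 5.01, 8.10, 6.40 and 6.54 CPM in ArKI IS (log2 -0.76 ± 0.13, adjusted p = 0.000161). *Hoxc8*, a gene of the trunk, fell from 15.5, 13.7, 14.1, 14.1 and 13.7 CPM to 11.9, 7.79, 5.94, 7.52 and 6.88 CPM (log2 -0.83 ± 0.14, adjusted p = 0.000184). Both genes had no overlap between the groups. *Hoxb6* fell by 0.21 ± 0.05 on the log2 scale with 1 ArKI sample among the WT samples (adjusted p = 0.00359).

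Other cell types moved in the same comparison. Ciliated efferent duct markers (2 of 3 listed genes in the tables) summed to 24.7 to 38.3 CPM in WT IS and 38.1 to 139 CPM in ArKI IS. The 5 smooth muscle markers summed to 514 to 593 CPM and 224 to 400 CPM, the 6 fibroblast markers to 1017 to 1132 CPM and 1105 to 1397 CPM, and the 6 IS epithelial markers to 21198 to 23162 CPM and 16864 to 20670 CPM. Germ cell and sperm markers went from 6.13 to 41.7 CPM in WT IS to 0.675 to 2.56 CPM in ArKI IS, endothelial markers from 82.4 to 98.8 CPM to 57.3 to 68.3 CPM, basal cell markers from 246 to 290.4 CPM to 192 to 220.4 CPM and immune markers from 64.0 to 81.3 CPM to 46.4 to 62.7 CPM. No marker of these lists was at 0 throughout. The Sertoli list, with 1 of its 4 genes at 0, had 115 to 135 CPM in WT IS and 136 to 177 CPM in ArKI IS. Their part in the Hox differences was not tested.

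In the caput, of 27 members tested, 3 were higher in ArKI caput, where 13.7% of all tested genes were, and 3 were lower, where 14.0% were. *Hoxd3* had 123, 120.1, 122, 127 and 124 CPM in WT caput and 182, 164, 169, 152 and 164 CPM in ArKI caput. All ArKI samples were above all WT samples (log2 0.43 ± 0.05, adjusted p = 6.42e-06). *Hoxd4* had 315, 342, 316, 333 and 306 CPM in WT caput and 491, 363, 448, 402 and 419 CPM in ArKI caput, again without overlap (log2 0.39 ± 0.06, adjusted p = 0.000192). The IS and caput comparisons share no library, although the methods give both segments as taken from 5 mice of each genotype, so the mice are not separate, and both *Hoxd3* and *Hoxd4* were higher in ArKI mice in each of them. The annotated spans of the 2 genes overlap on chromosome 2, from 74711927 to 74748442 for *Hoxd3* and from 74711929 to 74729160 for *Hoxd4*, both on the plus strand. Over transcripts with a RefSeq accession the genes share no exon base, but over all annotated transcripts 62.3% of the *Hoxd3* and 52.3% of the *Hoxd4* exon bases are shared with another gene of that strand, so their counts may be split or incomplete.

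*Hoxa5*, which acts in lung development, had the widest change of the 6 called members, 0.56 ± 0.16 (adjusted p = 0.0205), but its groups overlapped, at 6.95 to 12.4 CPM in WT caput and 11.1 to 19.2 CPM in ArKI caput. *Hoxb8* fell by 0.20 ± 0.05 without overlap (adjusted p = 0.00447), from 224 to 248 CPM to 200.4 to 213 CPM. *Hoxb6* fell by 0.15 ± 0.05 (adjusted p = 0.0226) and *Hoxb7* by 0.19 ± 0.06 (adjusted p = 0.0237), and both calls were near the threshold. That of *Hoxb6* was lost in 6 of 18 alternatives, with WT caput replicate 2, 3 or 4 or ArKI caput replicate 1 left out among them, and an adjusted p of up to 0.165. That of *Hoxb7* was lost in 7 of 18, with WT caput replicate 3, 4 or 5 or ArKI caput replicate 4 or 5 left out among them, and an adjusted p of up to 0.158. The call of *Hoxa5* was lost without ArKI caput replicate 4 (adjusted p = 0.054). *Hoxa10* had 0.861 to 3.94 CPM in WT caput and 1.26 to 4.22 CPM in ArKI caput and was not called. Its log2 change was 0.39 with an approximate 95% interval from -0.36 to 1.14, which includes the rise in IS to nearly its full size. At the thresholds of the study 0 members were called by edgeR, DESeq2 or limma, where 4.98% of all genes tested were called by edgeR. No member with an unadjusted p under 0.05 by edgeR had a change over 2-fold. In caput the fibroblast markers summed to 664 to 737 CPM in WT and 799 to 1766 CPM in ArKI samples, the top value in ArKI caput replicate 2. Germ cell and sperm markers summed to 107 to 179 CPM in WT and 5.23 to 25.5 CPM in ArKI caput, endothelial markers to 33.2 to 35.8 CPM and 40.3 to 59.9 CPM, and the Sertoli list to 49.9 to 57.8 CPM and 83.0 to 99.0 CPM. Schwann cell markers summed to 7.75 to 8.90 CPM in WT and 4.63 to 6.93 CPM in ArKI caput, and the Leydig list to 13.9 to 18.0 CPM and 18.5 to 24.8 CPM. The part of these in the Hox differences was not tested.

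**Figure D5:**
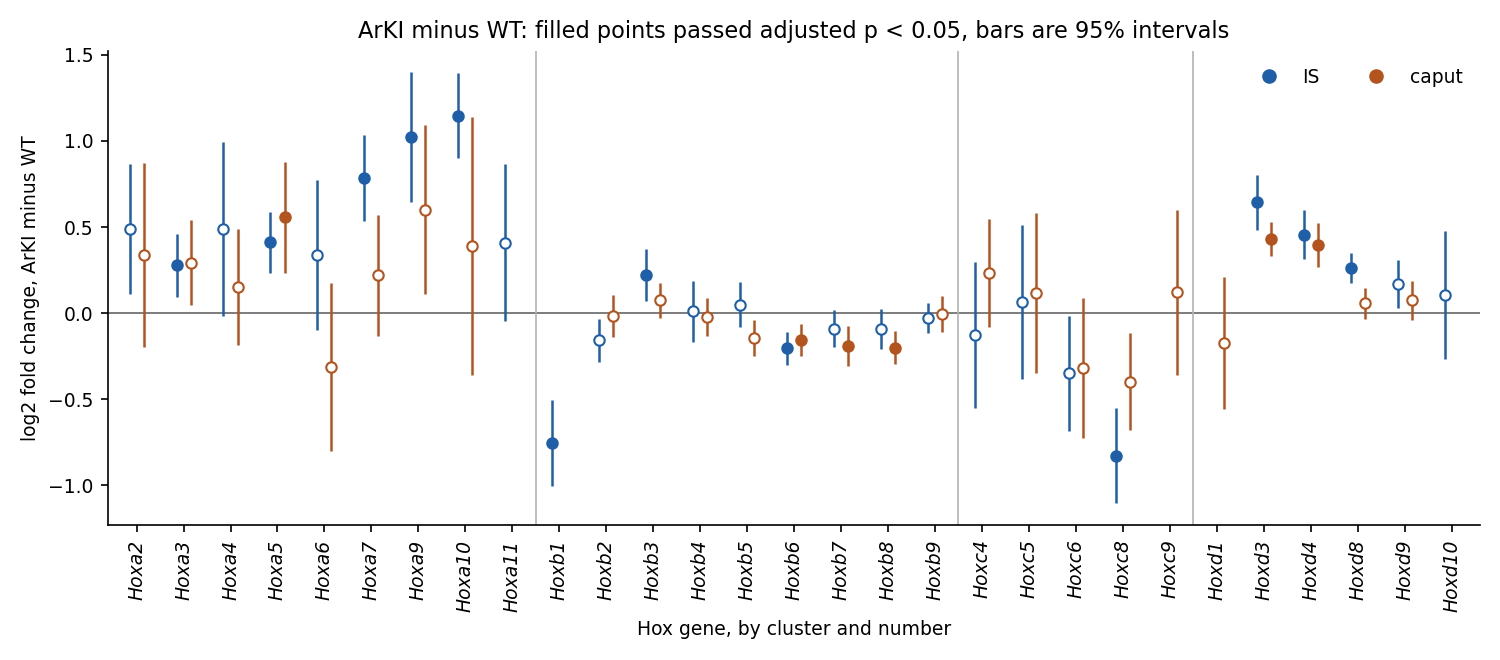
Log2 fold change from WT to ArKI of tested Hox genes in IS and in caput, with approximate 95% intervals, filled where the adjusted p was below 0.05. *Hoxa7*, *Hoxa9* and *Hoxa10* rose in IS, *Hoxd3* and *Hoxd4* rose in both segments, and *Hoxb1* and *Hoxc8* fell in IS.

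In the testis, 16 members were tested and 1 passed an adjusted p of 0.05, where 1.96% of all tested genes did. *Hoxd10*, a gene of the limb and lower spinal cord, had 2.59, 2.03 and 2.50 CPM in WT testis and 4.58, 3.82 and 4.45 CPM in ArKI testis. The groups did not overlap (log2 0.81 ± 0.20, adjusted p = 0.0323). By DESeq2 the adjusted p of *Hoxd10* was 0.138 and by limma 0.0519, and leaving out any 1 testis library other than ArKI testis replicate 2 gave 0.0534 to 0.117. At the thresholds of the study for testis, adjusted p below 0.2 and more than 2-fold, *Hoxb9* was called, where 0.833% of all tested genes were. *Hoxb9* had 0.864, 0.795 and 0.430 CPM in WT testis and 1.45, 1.71 and 1.48 CPM in ArKI testis (adjusted p = 0.0925), or 5 to 12 counts against 19 to 29. That call was lost by DESeq2, without WT testis replicate 3 and without ArKI testis replicate 2. *Hoxa4* had 72.4 to 84.5 CPM in ArKI testis, *Hoxd8* 41.0 to 43.3 CPM, and neither was called. Fibroblast markers summed to 130.0 to 143 CPM in WT testis and 168 to 179.9 CPM in ArKI testis, and Leydig cell markers to 516 to 710.1 CPM and 804 to 838 CPM. Immune markers summed to 17.9 to 21.1 CPM and 21.8 to 25.4 CPM, smooth muscle markers to 131 to 132 CPM and 135 to 156 CPM, and caput epithelial markers to 69.8 to 74.2 CPM and 45.6 to 55.1 CPM. Singly, most of these markers were not called. Called higher were 2 of 6 fibroblast, 1 of 4 Leydig and 1 of 5 smooth muscle markers. Of 4 caput epithelial markers 1 was lower, and 0 of 3 immune markers were called, where 1.96% of all tested genes were. Their part in the Hox differences was not tested.

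WT testis and WT epididymis differed in tissue and in sequencing run, which cannot be told apart. These comparisons share the WT epididymal samples with the segment comparison. Calls were made at an adjusted p below 0.05 and more than 2-fold. Against WT IS, 27 of 30 tested members were lower in testis, where 31.2% of all tested genes were, and 2 were higher, where 38.5% were. Against WT caput 26 were lower, where 31.5% were, and 2 were higher, where 38.1% were. The median over all genes was 0.19 against IS and 0.16 against caput on the log2 scale, and it moved between -0.34 and 0.30 with the scaling. Cell-type markers differed widely too. Germ cell and sperm markers summed to 12929 to 16581 CPM in WT testis, 6.13 to 41.7 CPM in WT IS and 107 to 179 CPM in WT caput. Leydig cell markers summed to 516 to 710 CPM, 2.26 to 4.21 CPM and 13.9 to 18.0 CPM. Caput epithelial markers summed to 69.8 to 74.2 CPM, 54746 to 63393 CPM and 69726 to 86163 CPM, and basal cell markers to 3.36 to 4.06 CPM, 246 to 290 CPM and 195 to 251 CPM. Their part in these differences was not tested.

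*Hoxa4* was the member higher in testis than in both segments. It had 74.6, 68.8 and 72.8 CPM in WT testis against 1.47 to 2.46 CPM in IS and 2.76 to 4.19 CPM in caput, which is 41.6-fold (log2 5.38 ± 0.12, adjusted p = 1.02e-22) and 21.8-fold (log2 4.44 ± 0.10, adjusted p = 4.07e-22). *Hoxc9* was higher than in IS by log2 3.21 and stood at 1.94 to 2.23 CPM, within the range in caput. *Hoxd10* was higher than in caput by log2 2.49 and not called against IS. The main genes of the duct were near absent from testis. *Hoxb6* had 0.0860 to 0.442 CPM there and was 851-fold below IS. *Hoxa10* and *Hoxa11* had 0 counts in each WT testis library, which puts *Hoxa10* at least 33.7-fold and *Hoxa11* at least 9.26-fold below IS. *Hoxb1* had at most 1 count, at least 44.7-fold below IS. *Hoxd8* was the closest to the epididymis among the abundant genes, 3.26-fold below IS.

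The partners and regulators of Hox genes were taken as lists. Of 9 Pbx, Meis and Pknox cofactors, 8 were tested between WT segments, and 3 were higher and 3 lower in caput, where 34.4% and 35.0% of all tested genes were. *Pbx3* changed most, from 30.5 CPM in IS to 5.97 CPM in caput (log2 -2.34 ± 0.11, adjusted p = 2e-16). *Pbx2* was higher in caput by 0.55. In ArKI IS, 3 cofactors of 8 were lower, *Meis2* by log2 -0.78, *Pbx3* by -0.30 and *Pknox1* by -0.22, where 14.6% of all tested genes were lower. In ArKI caput 1 of 8 was higher, *Pbx2* by 0.33, where 13.7% of all tested genes were.

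Of 17 Polycomb genes, 4 were higher and 7 lower in WT caput than in WT IS, where 34.4% and 35.0% of all tested genes were. *Phf19*, which guides the silencing complex to DNA, had 0.910 CPM in IS and 12.9 CPM in caput (log2 3.80 ± 0.30, adjusted p = 8.52e-11). *Ezh2*, which methylates histone H3 at silent Hox genes, was the member higher in ArKI mice in both segments, in IS (log2 0.72 ± 0.11, adjusted p = 3.34e-05) and in caput (log2 0.66 ± 0.12, adjusted p = 0.000424). In all, 3 Polycomb genes were higher and 1 lower in ArKI IS, and 2 higher and 4 lower in ArKI caput, where 15.0% and 14.6% of all tested genes were in IS and 13.7% and 14.0% in caput. Of 5 tested activators and demethylases, 1 was higher in WT caput than in WT IS, 1 in ArKI caput than in ArKI IS, and 1 in ArKI IS than in WT IS, where 34.4%, 33.0% and 15.0% of all tested genes were. Each time it was *Men1*, a partner of histone methylases, by log2 0.36, 0.26 and 0.19.

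Of 11 genes of retinoic acid supply and response, 9 were tested in the epididymis. Between WT segments 3 were higher and 2 lower in caput, where 34.4% and 35.0% of all tested genes were. *Rara*, *Rarg* and *Rxra*, receptor genes, were higher in caput by log2 0.86, 0.51 and 0.21, and *Rarb* and *Cyp26b1* were lower, at log2 -0.62 and -0.91. *Cyp26b1*, which breaks retinoic acid down, fell in ArKI mice in both segments, from a mean of 13.1 to 3.82 CPM in IS (log2 -1.76 ± 0.30, adjusted p = 0.00106) and from 6.86 to 2.91 CPM in caput (log2 -1.26 ± 0.23, adjusted p = 0.000558). It was the 1 called gene of the 9 in ArKI IS, where 14.6% of all tested genes were lower. In ArKI caput 3 of 9 were higher and 2 lower, where 13.7% and 14.0% of all tested genes were, and *Aldh1a3*, which makes retinoic acid, was higher by 0.75. The 3 *Cdx* genes, upstream regulators of Hox genes in the embryo, were too low to test.

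Of 8 other homeobox and duct genes, *Evx1* stands beyond the *Hoxa13* end of the *Hoxa* cluster. It had 1.98 CPM in WT IS, 5.18 CPM in WT caput, 1.46 CPM in ArKI IS and 14.1 CPM in ArKI caput as group means, and its change between segments was larger in ArKI mice (interaction 1.86 ± 0.34, adjusted p = 0.000371). The interaction went the other way for 3 genes of the list, among them *Lhx1* (-2.44) and *Pax2* (-0.64). In all, 4 of 6 tested genes of the list were called, where 15.1% of all tested genes were. *Pax2*, a gene of the embryonic duct, had 18.3 CPM in WT IS and 97.2 CPM in WT caput, and rose in ArKI IS by 0.69. *Emx2*, also needed for the duct, rose in ArKI IS by 0.65 and in ArKI caput by 0.44. In each genotype comparison of the epididymis 3 genes of the list were higher and 0 lower by edgeR, of 6 tested in IS and 5 in caput, where 15.0% and 13.7% of all tested genes were higher.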

How the data were processed

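Per the labels and the study's methods, the authors extracted total RNA with Trisure from the tissues of single mice, made mRNA libraries and sequenced 50-base single reads. The labels name a TruSeq RNA v2 kit and the methods a stranded TruSeq kit. Reads were aligned with STAR to mm10, and the deposited counts are uniquely mapped reads per RefSeq gene, counted with Subread 1.5.1 (submitters' processing notes). Whether counting used the strand is not given in the sources used here, so reads of a gene and of its antisense partner may not be separable.

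From the deposited counts, TMM-scaled levels per 1000000 counts (CPM) and values per kilobase of exon were computed. Exon lengths and positions are from GENCODE M21 on GRCm38, over transcripts with a RefSeq accession. Differences were tested with edgeR 4.0.16 in R 4.3.3 (quasi-likelihood test, genes passing filterByExpr at its defaults of 10 counts as the minimum and 15 in total, Benjamini-Hochberg adjustment over all tested genes). The 20 epididymal samples formed 1 fit for segments and the interaction, each genotype comparison used the samples of its tissue, and the 13 WT samples were used for testis against epididymis. The authors used ROTS on voom values, for which no package was at hand. DESeq2 1.42.0 and limma 3.58.1, other scalings, no filter, leaving out each replicate, the replicate number as a block and other sets of samples in the fit served as alternatives. Scripts were tested on simulated data.

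Shown in detail are, per comparison, up to 10 called members in order of adjusted p and the 3 highest members per length in each WT tissue, with the other members as ranges or counts. The members and the gene lists were chosen with earlier results of these data known. P-values measure the spread between these mice, for which the labels give no litter. Some items are not reported here, and the plots by gene leave out 1 member. Depth limits the low members, and 3 counts were taken as the floor.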

Additional observations from a re-analysis of the deposited data

Results flagged for a closer look

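Within groups, 112 sets of replicates with a mean of at least 1 CPM were checked for a sample far from the others (Dixon's ratio above 0.71 for 5 samples), and chance alone flags about 1 in 20 of them. The check picked 6. *Hoxa5* in WT IS replicate 5 was low, at 11.4 CPM against 13.2 to 13.6 in the other samples. *Hoxa10* in WT IS replicate 4 was low, at 6 CPM against 8.42 to 9.34. *Hoxa11* in WT caput replicate 3 was high, at 2.08 CPM against 0.662 to 1.02, and that library also had 1 of the 2 highest sums of IS markers among WT caput samples. *Hoxc4* in WT IS replicate 3 was low, at 2.34 CPM against 4.44 to 4.91. *Hoxc5* in ArKI caput replicate 2, the smallest library, was high, at 4 CPM against 2.05 to 2.44. *Hoxc8* in WT IS replicate 1 was high, at 15.5 CPM against 13.7 to 14.1.

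The change between segments differed between genotypes for *Hoxd8*, by -0.21 on the log2 scale (interaction, edgeR's quasi-likelihood test, adjusted p = 0.0188).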

How the results depend on the processing

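Of 124 calls of single Hox genes, each recomputed under its alternatives (2029 values), none changed direction, 113 were kept throughout and 11 were lost in 54 values. The 11 were *Hoxa5* and *Hoxb5* between WT segments, *Hoxa4* and *Hoxb3* between ArKI segments, *Hoxa3* and *Hoxb3* in ArKI IS, *Hoxa5*, *Hoxb6* and *Hoxb7* in ArKI caput, *Hoxd10* in ArKI testis, and *Hoxa9* in WT testis against WT caput, the last without WT testis replicate 1 (adjusted p = 0.0596 by edgeR). With 1 replicate left out, the count of members called was 22 to 25 between WT segments, 22 to 24 between ArKI segments, 1 to 2 for the interaction, 1 to 2 for ArKI IS at the study's thresholds, and 0 to 1 for ArKI testis at either threshold. The interaction count was 2 without ArKI IS replicate 1 or ArKI caput replicate 5 (with *Hoxc8*), without ArKI IS replicate 2 (*Hoxb5*), without ArKI IS replicate 4 (*Hoxd3*) and without ArKI caput replicate 3 (*Hoxa7*). Over all genes, fits without 1 replicate called 4838 to 4987 higher and 4753 to 4860 lower between WT segments. The full fit gave 4933 and 5015. Between ArKI segments 4534 to 4701 were higher and 4473 to 4761 lower, against 4728 and 4753. For the interaction 902 to 1070 were higher and 1011 to 1214 lower, against 1057 and 1113. In ArKI testis, by adjusted p alone, 165 to 268 were higher and 21 to 121 lower, against 259 and 52. At the study's thresholds these counts are not given. In ArKI testis the member count was 0 with DESeq2 and limma. Over all 15838 genes DESeq2 called 210 higher and 56 lower, and limma 239 and 44. At the study's testis thresholds the member count was 0 with DESeq2, and the cause was not tested. In ArKI caput the count was 6 as reported, 4 with library sizes alone and 8 with limma. Over all 13726 genes tested these fits called 1883 higher and 1925 lower, 2248 and 1593, and 1881 and 1947. The count was 4 to 7 with 1 replicate left out (4 without WT caput replicate 3), where 1651 to 1943 genes were higher and 1717 to 1900 lower. Without WT caput replicates 3 and 4 it was 4, where 1481 genes were higher and 1515 lower of 14045. Leaving out WT caput replicates 3 and 4 was chosen after seeing the data. Summed Hox CPM moved with library sizes alone from 1728 to 1819 in WT IS, 1838 to 1974 in ArKI IS, 1600 to 1675 in WT caput, 1697 to 1823 in ArKI caput, 157.7 to 129.3 in WT testis and 170.2 to 139 in ArKI testis. ROTS was not run.

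No source used here says that a replicate number marks a mouse, and in no pair of groups did all same-numbered samples correlate above 0.1 in their deviations, so they were not paired. The correlations ran from -0.0012 to 0.17 between WT IS and WT caput, where 3 of 5 samples correlated best with their own number, and from -0.15 to 0.21 over all pairs of groups. The block below was 1 factor shared by WT and ArKI samples, so it does not pair the segments of a mouse within a genotype. With the number as a replicate block, 25 members were called between WT segments, 24 between ArKI segments and 1 for the interaction. Over all genes, in that order, 4932 were higher and 5029 lower of 14329, 4745 and 4782, and 1101 and 1127. In ArKI IS 14 members were called (2 at the study's thresholds), in ArKI caput 7 and in ArKI testis 1 (1 at the study's thresholds). Over all genes 2059 were higher and 2009 lower of 13434, 1801 and 1878 of 13726, and 255 and 50 of 15838. For WT testis 29 members were called against WT IS and 28 against WT caput. Over all genes 6320 were higher and 5123 lower of 16402, and 6247 and 5153.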
